A study of Mus musculus with 9 samples.

Results

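The 42 genes described here encode lysosomal glycosidases, sulfatases, lipid hydrolases, proteases and membrane proteins, together with the secreted cathepsin inhibitor Cst3 and the transcription factor Tfeb. They were taken by name from a list of the lysosome's hydrolases and membrane proteins, and all 42 were measured, among 19938 genes on the arrays. Each gene was read from its brightest probe set carrying that symbol alone, and Arsb, the 1 member with 2 such probe sets, gave differences from WT of 0.29 and 0.20 on the log2 scale in TM and of 0.42 and 0.24 in DM. Expression was profiled in mouse embryonic fibroblasts (MEFs) on Affymetrix Gene ST arrays, with 3 arrays for each of 3 genotypes. TM cells carry the PRDX4 KO together with mutations of both ERO1alpha and ERO1beta, DM cells carry the ERO1alpha and ERO1beta mutations alone, and the control cells are labelled wild-type (WT). All are labelled as T antigen transformed fibroblasts of C57B/L6 background, while the study's methods describe both primary MEFs and MEFs immortalised with large T antigen. For TM the methods write both Ero1 genes as m/m and Prdx4 as m/y, and for DM both Ero1 genes as m/m and Prdx4 as +/+. Control MEFs are given there as m/+ for Ero1α, m/m for Ero1β and +/+ for Prdx4, so the cells labelled WT may share the Ero1β mutation with both mutants. ERO1alpha, ERO1beta and PRDX4 are oxidases of the endoplasmic reticulum that introduce disulphide bonds into newly made proteins. As no label ties the 3 arrays of a genotype to separate embryos or cultures, a p-value here covers array-to-array spread only, and that spread may be technical.

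Lysosomes are acidic organelles in which soluble hydrolases break down glycans, sulphated matrix polymers, lipids and proteins delivered by endocytosis and autophagy. Most hydrolases are made in the endoplasmic reticulum, where many receive disulphide bonds, and then reach the lysosome by way of a mannose 6-phosphate tag. Tfeb and its relatives switch on many lysosomal genes through an E-box in their promoters, and fibroblasts also use lysosomal cysteine proteases to degrade collagen taken up from the matrix. Glb1, the lysosomal beta-galactosidase, is the enzyme behind the staining commonly used to mark senescent cells.

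The E-box core CACGTG was the sequence motif examined in these genes, with a longer form of it given below. It was searched for in RefSeq promoters of build GRCm38.p6, each 300 bases long with 250 bases before the start site and 50 from it. The motif is its own reverse complement, so 1 search covers both strands. Of the 37 members with a promoter in the table, 13 held it (35.1%), against 2187 of 27025 genes (8.09%) and 7.15% of all 32851 promoters. The longer form TCACGTGA, which contains the core and overlaps each of its matches, stood in the promoters of Ctsa, Ctsd, Gla and Mcoln1, that is 10.8% of members against 1.12% of genes and 0.974% of all promoters. A match is given as a description of sequence, with no claim of binding. The 4 promoter windows with the longer form are printed with that of Glb1, which holds the core only, because Glb1 was the 1 gene with the motif that was called in an expression comparison. Capitals mark 1 match in each, and the sequences run 5′ to 3′ on the gene's strand.
Ctsa, chr2:164833742-164833785, plus strand: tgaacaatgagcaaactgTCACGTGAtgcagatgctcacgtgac
Ctsd, chr7:142387901-142387944, minus strand: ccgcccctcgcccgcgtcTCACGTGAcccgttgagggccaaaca
Mcoln1, chr8:3500455-3500498, plus strand: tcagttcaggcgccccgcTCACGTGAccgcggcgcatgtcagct
Gla, chrX:134601208-134601251, minus strand: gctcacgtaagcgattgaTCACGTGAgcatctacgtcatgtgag
Glb1, chr9:114401012-114401053, plus strand: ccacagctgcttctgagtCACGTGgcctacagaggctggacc
Counted in bases from the start site, the match in Glb1 lay at -48 to -43, and Lamp1, a major glycoprotein of the lysosomal membrane, held 4 matches between -61 and -10.

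**Figure D1:**
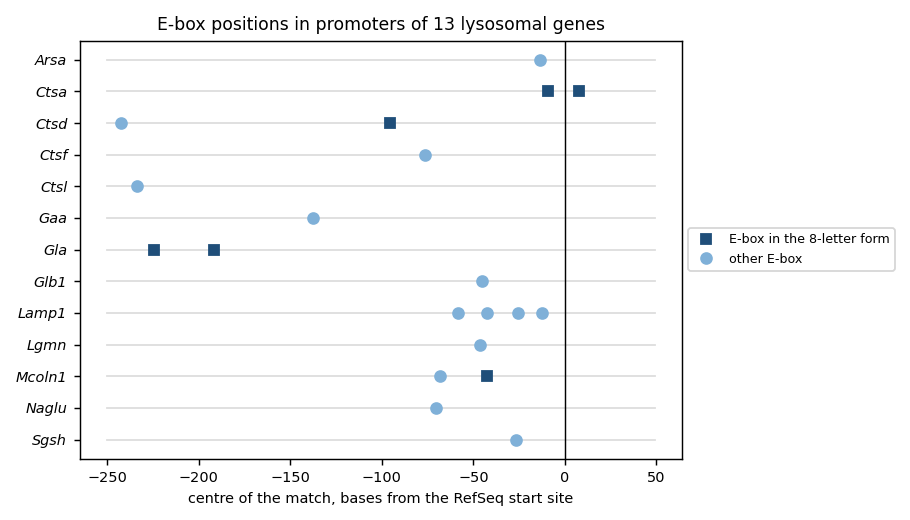
Positions of CACGTG in the promoters of the 13 lysosomal genes that hold it, 1 row a gene. The x axis gives the centre of each match in bases from the RefSeq start site, squares are matches within the 8-letter form, circles are other matches, and grey lines span the 300 bases searched. Ctsa, Ctsd, Gla and Mcoln1 have squares and Lamp1 has 4 circles.

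Array medians were 7.62 to 7.72 on the log2 scale, and arrays correlated across all genes at 0.994 to 0.997 within a genotype and 0.976 to 0.984 between genotypes. Of the mutated genes, the mRNAs of 2 were lower. Ero1a had log2 fold changes of -2.80 in TM and -2.40 in DM against WT, and Prdx4 averaged 6.30 in TM, 10.68 in DM and 10.56 in WT cells. Ero1b averaged 7.94, 7.70 and 7.65 in TM, DM and WT cells and was not called in any comparison. The labels name no batch. DM cells differed from the rest in genes of the sex chromosomes. Xist, the transcript that silences 1 X chromosome in female cells, averaged 5.72 in TM, 12.56 in DM and 5.70 in WT cells, and the Y-linked Eif2s3y averaged 10.31 in TM, 8.23 in DM and 10.24 in WT cells. Genotype and this difference cannot be told apart in any comparison with DM.

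A gene was called where limma gave a Benjamini-Hochberg adjusted p under 0.05 over all 19938 genes and the difference exceeded 1.5-fold. In TM against WT, 4 members were higher, Lipa, Ctsc, Tpp1 and Scarb2, and 2 were lower, Ctsk and Glb1. These are 9.52% and 4.76% of the members, beside 5.59% of all genes called higher and 3.56% called lower. In DM against WT, 6 members were higher, Ctsc, Scarb2, Manba, Ctsh, Lipa and Fuca1, and 1 was lower, Ctsk, where 5.28% and 5.67% of all genes were called in those directions. In TM against DM, 0 members were higher and 4 were lower, Ctsc, Scarb2, Manba and Ids, where 4.68% and 3.61% of all genes were called. The count of 0 was also 0 at an unadjusted p under 0.05 with the same fold limit and by Student's t-test with adjusted p. The members' shares were 14.3% higher and 2.38% lower in DM against WT, and 9.52% lower in TM against DM, so they lay above those of all genes in some directions and below them in others, each resting on 0 to 6 genes. Among the 11077 genes brighter than the median probe set, 7.33% were called higher and 5.47% lower in TM against WT. The shares were 7.5% and 9.14% in DM against WT, and 6.6% and 5.32% in TM against DM. Beside these, the members' 4.76% lower in TM against WT was the smaller share. Of the 42, 10 were called in at least 1 comparison and 32 in none. Fewer cells of a type and less RNA per cell cannot be told apart in such bulk samples.

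Without the fold limit, 24 members passed the adjusted p in TM against WT, 17 with positive and 7 with negative differences, as did 31.8% of all genes. In DM against WT 29 passed, 21 positive and 8 negative, beside 36.8% of all genes, and in TM against DM 21 passed, 7 positive and 14 negative, beside 31.8% of all genes. Most members are bright, 39 of 42 lying above the array median on all 9 arrays, and among the 11077 genes brighter than the median probe set 46.9%, 54.1% and 45.2% passed in the 3 comparisons. The members' median log2 fold change was 0.05 in TM against WT, 0.19 in DM against WT and -0.06 in TM against DM, beside -0.03, 0.02 and -0.05 over all genes. For 31, 31 and 34 members the whole 95% interval of the difference stayed within 1.5-fold.

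**Figure D2:**
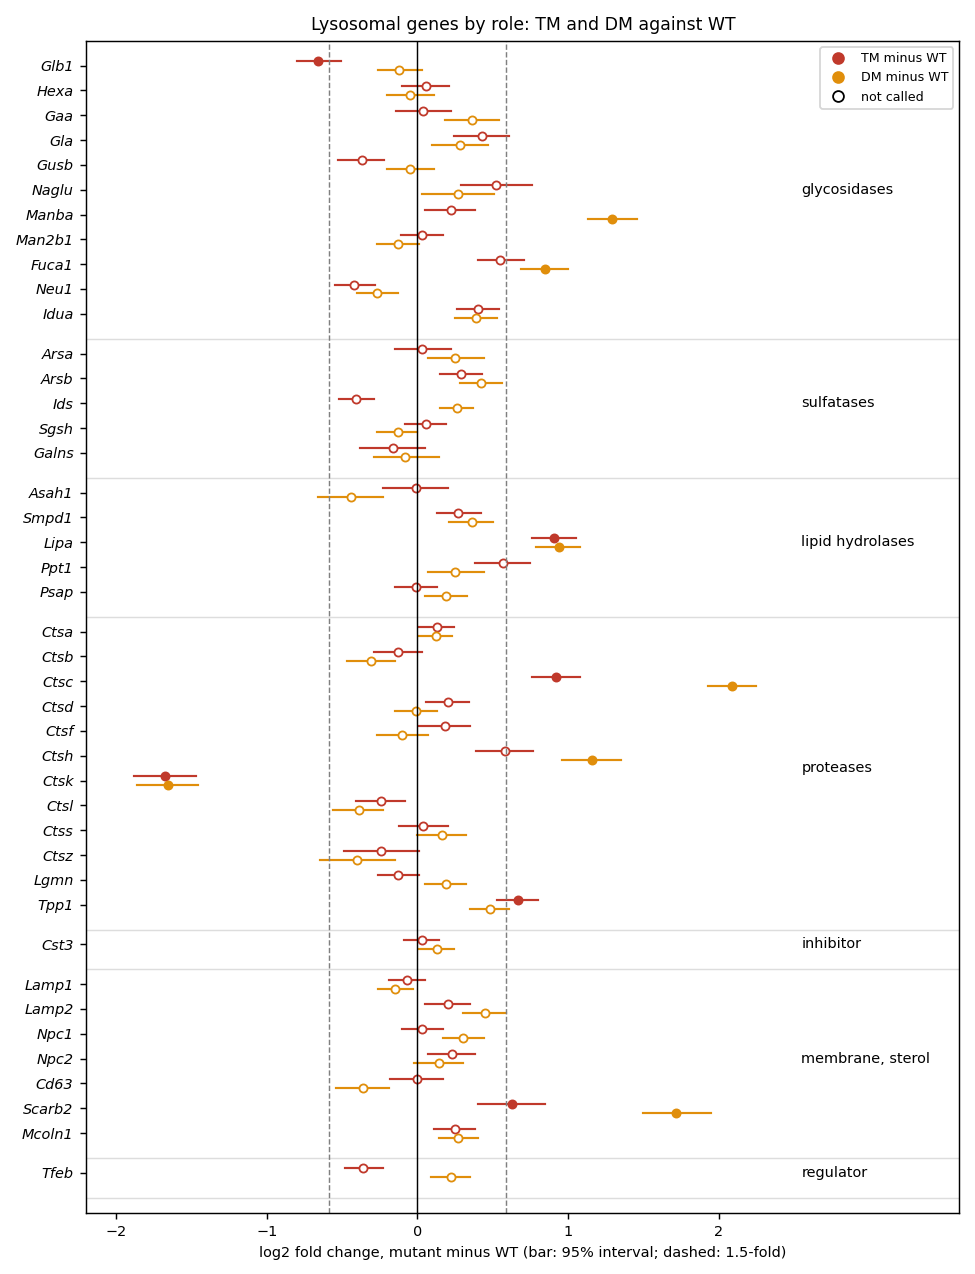
Log2 fold changes of the 42 genes against WT, grouped by role, with TM in red above DM in orange. Points are fitted differences from 3 arrays a genotype, bars are 95% intervals, filled points are called genes, and dashed lines mark 1.5-fold. Most points lie between the dashed lines, while Ctsk lies far left in both mutants and Ctsc, Scarb2, Manba and Ctsh lie farthest right in DM.

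The proteases held the largest differences in both directions. Ctsk, cathepsin K, a cysteine protease that degrades collagen, had log2 levels of 6.37, 6.24 and 6.27 in TM, 6.48, 6.24 and 6.22 in DM, and 7.85, 8.17 and 7.89 in WT cells. Every mutant array lay below every WT array, and the mutants overlapped each other. The fitted log2 fold changes were -1.68 in TM (0.313-fold, SE 0.0928, adjusted p = 2.2e-08) and -1.66 in DM (0.317-fold, adjusted p = 2.15e-08). TM and DM differed by -0.02, with a 95% interval from -0.22 to 0.19. The Ctsk levels of both mutants lay below the array medians.

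Ctsc, cathepsin C, a dipeptidyl peptidase that activates granule serine proteases in leukocytes, moved the other way. Its levels were 9.41, 9.28 and 9.53 in TM, 10.54, 10.50 and 10.69 in DM, and 8.51, 8.51 and 8.45 in WT cells, 3 ranges that did not overlap. It was 1.89-fold higher in TM (log2 fold change 0.92, SE 0.0738, adjusted p = 7.76e-07) and 4.25-fold higher in DM (2.09, adjusted p = 2.67e-10), and lower in TM than in DM (-1.17, adjusted p = 8.75e-08). The promoters of Ctsk and Ctsc, the members with the largest fall and the largest rise, are printed whole, with capitals marking the 50 bases from the start site. Neither holds CACGTG.
Ctsk, chr3:95498960-95499259, plus strand: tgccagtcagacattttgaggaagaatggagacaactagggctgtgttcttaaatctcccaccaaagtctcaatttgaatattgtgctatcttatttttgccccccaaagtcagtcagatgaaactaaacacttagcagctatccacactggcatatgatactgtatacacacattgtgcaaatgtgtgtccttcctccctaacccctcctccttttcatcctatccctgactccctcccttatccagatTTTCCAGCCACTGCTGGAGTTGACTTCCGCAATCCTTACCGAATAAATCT
Ctsc, chr7:88277835-88278134, plus strand: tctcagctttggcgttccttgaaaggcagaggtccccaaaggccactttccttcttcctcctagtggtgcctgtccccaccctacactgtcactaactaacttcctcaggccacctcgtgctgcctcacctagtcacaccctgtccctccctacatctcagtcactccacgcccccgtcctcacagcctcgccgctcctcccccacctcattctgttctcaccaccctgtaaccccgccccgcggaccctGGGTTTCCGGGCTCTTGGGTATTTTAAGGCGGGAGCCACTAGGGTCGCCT
Their G and C content was 43.7% for Ctsk and 60.3% for Ctsc, against a median of 52.7% over all promoters.

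Ctsh, cathepsin H, an aminopeptidase that also processes surfactant proteins, had levels of 7.42, 7.08 and 7.39 in TM, 7.92, 7.81 and 7.89 in DM, and 6.63, 6.81 and 6.71 in WT cells. Its levels in TM and WT cells lay below the array medians, and those in DM cells above them. The 3 genotypes did not overlap, and Ctsh was called in DM alone at 2.23-fold (log2 fold change 1.16, adjusted p = 4.27e-07). In TM it was 1.49-fold above WT (0.58, adjusted p = 0.000235), just inside the fold limit, as was the difference between TM and DM (-0.58, adjusted p = 0.000253). Tpp1, the tripeptidyl peptidase whose loss causes a childhood storage disease of neurons, had levels of 12.07, 12.07 and 12.17 in TM, 11.87, 11.93 and 11.97 in DM, and 11.48, 11.36 and 11.47 in WT cells. It was 1.59-fold higher in TM (0.67, adjusted p = 2.21e-06) and 1.40-fold above WT in DM (0.48, adjusted p = 3.36e-05), which is under the fold limit. TM and DM differed by 0.18 (adjusted p = 0.0366), so Tpp1 stood above WT in both mutants and its call in TM alone is not a called difference between them.

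The other 8 proteases were not called in any comparison. The cysteine proteases Ctsb, Ctsl and Ctsz had log2 fold changes of -0.13, -0.24 and -0.24 in TM and of -0.31, -0.39 and -0.40 in DM. Ctsd, the main aspartic protease, had 0.20 in TM and -0.01 in DM, and Ctsa, the carboxypeptidase that stabilises Glb1 and Neu1 in a complex, had 0.13 and 0.12. Ctss, which trims the invariant chain in antigen-presenting cells, lay below the array median on all 9 arrays at 6.26 to 6.39 in TM, 6.35 to 6.51 in DM and 6.16 to 6.37 in WT cells. Lgmn, the asparaginyl endopeptidase, had -0.13 in TM and 0.19 in DM, and Ctsf had 0.18 and -0.10.

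Cst3, cystatin C, the secreted inhibitor of cysteine cathepsins, was not called in any comparison. Its levels were 13.40, 13.41 and 13.32 in TM, 13.50, 13.46 and 13.48 in DM, and 13.37, 13.36 and 13.33 in WT cells. All DM arrays lay above all others, and TM overlapped WT. The differences from WT were 0.03 in TM (95% interval -0.09 to 0.14) and 0.13 in DM (95% interval 0.01 to 0.24, adjusted p = 0.0807). All 9 other cystatins measured were also not called in any of the 3 comparisons. Of all genes, 5.59% were called higher and 3.56% lower in TM against WT, and 5.28% and 5.67% in DM against WT. Except for Cstb, at 12.22 in TM, 12.25 in DM and 12.42 in WT cells, the genotype means of these genes were 7.66 or lower. That is near or below the array medians of 7.62 to 7.72, where a change could be missed.

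Among the 11 glycosidases, Glb1 was the 1 called lower in TM, and Manba and Fuca1 were called higher in DM. Glb1 had levels of 10.0, 9.85 and 10.0 in TM, 10.47, 10.54 and 10.47 in DM, and 10.56, 10.70 and 10.56 in WT cells. Glb1, Ids and Ctss each had at least 2 arrays of a genotype with identical values. Such ties may understate the array spread behind the p-values of these genes. All TM arrays lay below all others, with a log2 fold change of -0.66 in TM (0.634-fold, 95% interval -0.80 to -0.51, adjusted p = 5.92e-06) and -0.12 in DM (95% interval -0.26 to 0.03, adjusted p = 0.201). TM lay below DM by 0.54 on the log2 scale (a difference of -0.54, adjusted p = 3.68e-05), short of the fold limit. These are mRNA levels, and beta-galactosidase activity is not part of the array data.

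Manba, beta-mannosidase, which removes the last mannose from N-glycan remnants, had levels of 8.19, 8.14 and 8.23 in TM, 9.16, 9.29 and 9.34 in DM, and 7.95, 8.11 and 7.85 in WT cells. DM lay more than 1 log2 unit above the mean of each other genotype, at 2.45-fold over WT (log2 fold change 1.29, adjusted p = 3.07e-08), and TM was lower than DM by 1.08 (-1.08, adjusted p = 2.29e-07). Fuca1, the alpha-L-fucosidase of glycoproteins, had 10.65, 10.50 and 10.55 in TM, 10.85, 10.74 and 10.98 in DM, and 9.96, 10.02 and 10.07 in WT cells. It was 1.80-fold higher in DM (0.85, adjusted p = 1.1e-06), stood at 1.47-fold in TM (0.55, adjusted p = 5.71e-05), and differed by -0.29 between TM and DM (adjusted p = 0.0075), which was not called.

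The remaining 8 glycosidases were not called in any comparison. Naglu, which removes N-acetylglucosamine from heparan sulphate, had log2 fold changes of 0.52 in TM and 0.27 in DM. Gla, alpha-galactosidase, had 0.43 and 0.28, and Idua, alpha-L-iduronidase, had 0.40 and 0.39. On the other side, the sialidase Neu1 had -0.42 in TM (adjusted p = 0.00018) and -0.27 in DM, and the beta-glucuronidase Gusb -0.37 in TM (adjusted p = 0.00127) and -0.05 in DM, all under the fold limit. Hexa, the alpha subunit of beta-hexosaminidase, the glucosidase Gaa and the mannosidase Man2b1 had 0.06, 0.04 and 0.03 in TM, and -0.05, 0.36 and -0.13 in DM.

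None of the 5 sulfatases was called against WT. Ids, the X-linked iduronate sulfatase of heparan and dermatan sulphate, had levels of 10.19, 10.18 and 10.22 in TM, 10.84, 10.90 and 10.85 in DM, and 10.59, 10.59 and 10.63 in WT cells. At least 2 arrays of a genotype were identical, which may understate its array spread. The 3 genotypes were separate, with TM below and DM above WT, at -0.41 (adjusted p = 4.97e-05) and 0.26 (adjusted p = 0.00153), both under the fold limit. TM was lower than DM at 0.631-fold (log2 fold change -0.66, adjusted p = 6.23e-07). The other X-linked members, Gla and Lamp2, differed between TM and DM by 0.14 and -0.24 and were not called, and the part of the X chromosome difference in these values was not tested. Arsb, Arsa, Sgsh and Galns, which act on dermatan sulphate, sulphatide, heparan sulphate and keratan sulphate, had 0.29, 0.03, 0.06 and -0.16 in TM, and 0.42, 0.25, -0.13 and -0.08 in DM.

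Of the 5 lipid hydrolases and activators, Lipa was higher in both mutants. Lipa, the acid lipase that frees cholesterol and fatty acids from lipoprotein lipids, had levels of 11.56, 11.64 and 11.64 in TM, 11.64, 11.54 and 11.75 in DM, and 10.74, 10.73 and 10.64 in WT cells. Both mutants lay above every WT array and overlapped each other, at 1.88-fold in TM (log2 fold change 0.91, adjusted p = 3.16e-07) and 1.91-fold in DM (0.94, adjusted p = 2.11e-07). Their difference was -0.03, with a 95% interval from -0.17 to 0.12. Ppt1, which removes palmitate from proteins, stood at 1.48-fold in TM (0.57, adjusted p = 0.000191) and 1.19-fold in DM. The acid ceramidase Asah1 had -0.01 in TM and -0.44 in DM, the acid sphingomyelinase Smpd1 0.27 and 0.36, and Psap, precursor of the saposins, -0.01 and 0.19, none of them called.

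Scarb2, the membrane receptor that carries glucocerebrosidase to the lysosome, was the 1 called gene among the 7 membrane and sterol export genes. Its levels were 9.79, 9.55 and 9.78 in TM, 10.74, 10.81 and 10.86 in DM, and 8.82, 9.18 and 9.25 in WT cells, again without overlap. It was 3.30-fold higher in DM (log2 fold change 1.72, adjusted p = 4.2e-08), and TM was lower than DM by 1.09 (-1.09, adjusted p = 3.91e-06). In TM it was 1.54-fold higher than in WT (0.63, SE 0.103, adjusted p = 0.000431), a call that was lost without WT replicate 1, where the difference was 0.50. The abundant membrane proteins Lamp1 and Lamp2 had log2 fold changes of -0.07 and 0.20 in TM and of -0.15 and 0.45 in DM. The sterol exporters Npc1 and Npc2, the first in the membrane and the second in the lumen, had 0.03 and 0.23 in TM and 0.30 and 0.14 in DM. The tetraspanin Cd63 had 0.00 in TM and -0.36 in DM, and the calcium channel Mcoln1 0.25 and 0.27, none of them called.

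**Figure D3:**
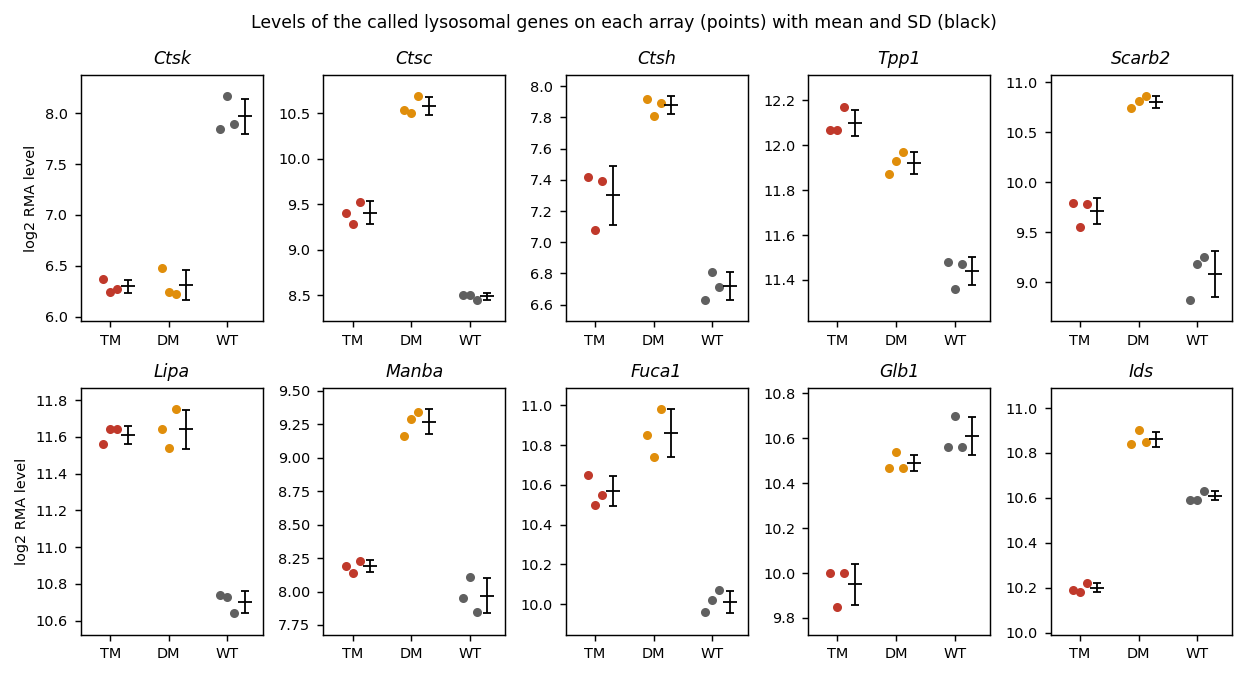
Log2 RMA levels of the 10 called genes on each array, with TM, DM and WT from left to right. Coloured points are the 3 arrays of a genotype, and black marks are their mean with its SD. Ctsk is near 6.3 in both mutants against about 8.0 in WT cells, Lipa is alike in TM and DM, and Manba, Ctsc, Ctsh, Scarb2, Fuca1 and Ids are highest in DM.

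Tfeb itself had levels of 8.88, 8.84 and 8.74 in TM, 9.41, 9.42 and 9.37 in DM, and 9.17, 9.15 and 9.22 in WT cells. The genotypes did not overlap, and no difference reached the fold limit: -0.36 in TM (adjusted p = 0.000366), 0.22 in DM (adjusted p = 0.00938) and -0.58 between TM and DM (0.67-fold, adjusted p = 6.54e-06). The 13 genes with an E-box had median log2 fold changes of 0.06 in TM and 0.12 in DM against WT, with 1 call, that of Glb1. The 24 genes with a promoter and no match had medians of 0.13 in TM and 0.24 in DM, and held 8 of the 9 called genes whose promoter was in the table. The printed windows of Ctsa, Ctsd, Mcoln1 and Gla therefore belong to genes that were not called, at 0.13, 0.20, 0.25 and 0.43 in TM and 0.12, -0.01, 0.27 and 0.28 in DM.

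Genes that act beside the members were read from 7 further lists, with 156 of 170 listed genes measured. In TM 12 of the 156 were higher and 4 lower, in DM 15 and 4, and between TM and DM 8 and 8, beside the shares of all genes given above. The list of other lysosomal hydrolases, of which 27 were measured, held more calls against WT than any other of the 7: 7 were higher and 0 lower in TM, and 9 were higher and 1 lower in DM. The higher genes were 25.9% of the list in TM and 33.3% in DM. The list's median log2 fold change was 0.20 in TM and 0.08 in DM. The count of 0 lower in TM was also 0 at an unadjusted p under 0.05 with the fold limit in limma. Creg1, a lysosomal glycoprotein, had log2 fold changes of 1.14 in TM and 2.29 in DM, with -1.15 between TM and DM. Smpdl3a, a phosphodiesterase related to sphingomyelinase, had 1.52 in TM and 0.87 in DM, and its DM and WT levels lay below the array medians. Gm2a, the activator of ganglioside breakdown, had 0.67 in TM and 1.40 in DM, with an SD of 0.0 over its TM arrays. Prcp, a carboxypeptidase, went the other way in DM, at -1.45, against a value of 0.23 in TM that was not called.

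The machinery around these enzymes gave fewer calls, in part near the shares of all genes. Those were 5.59% higher and 3.56% lower in TM against WT, and 5.28% and 5.67% in DM against WT. In the proton pump list 5.0% were higher in each mutant. In the sorting list 4.55% were lower in TM and 9.09% higher in DM. Of 27 other membrane and associated proteins, 3 were higher and 2 lower in each mutant, including the glycoprotein Gpnmb, at -1.14 in TM and -1.36 in DM, and the heparanase Hpse, at 0.88 and 1.26. The Gpnmb levels of both mutants lay below the array medians. Of the same list, the channel Tpcn1 was lower in TM at -0.84 and Lmbrd1, which takes part in cobalamin export, was higher in TM at 0.82. Of 20 subunits of the proton pump, 1 was higher in each mutant, Atp6v0e2, at 0.97 in TM and 0.94 in DM, while Tcirg1 and Atp6ap2 were lower in TM than in DM at -0.80 and -0.66. Of 22 genes for mannose 6-phosphate tagging and sorting, Sort1, a sorting receptor for several hydrolases, was 2.11 higher in DM on the log2 scale and was lower in TM than in DM at -1.67. Gnptab, the enzyme that makes the tag, was higher in DM at 0.74, and the adaptor subunit Ap1s1 was lower in TM at -0.76. The next list held 24 genes of the Tfeb family, the nutrient-sensing kinase complex on the lysosome and associated regulators. Of these, 0 were called in DM against WT by limma with the fold limit, at either the adjusted or the unadjusted p. The shares of all genes called were 5.28% higher and 5.67% lower. Without the fold limit 11 of the 24 passed the adjusted p (45.8%), beside 36.8% of all genes. For 5 genes that were not called, the 95% interval reached past 1.5-fold. Ppargc1a, a coactivator among the regulators, was higher in TM at 1.52, and its WT and DM levels lay below the array medians. Mitf was higher in TM than in DM at 0.87. Of 27 autophagy genes, Bnip3, a mitophagy receptor, was lower in TM at -1.43 and in DM at -0.63, where the call was lost with quantile normalization, and Map1lc3a and Rb1cc1 were higher in TM than in DM at 0.70 and 0.60.

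**Figure D4:**
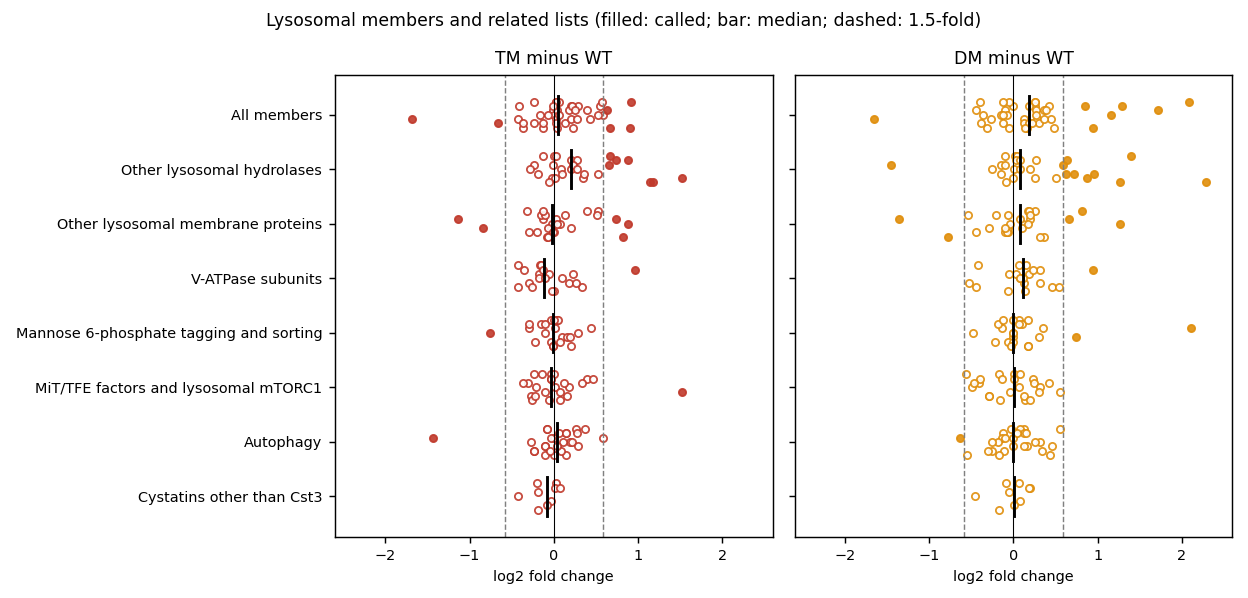
Log2 fold changes of the 42 genes (top row) and of 7 related lists against WT, with TM on the left and DM on the right. Each point is a gene, filled where called, black bars are medians, and dashed lines mark 1.5-fold. The other lysosomal hydrolases hold 7 filled points right of the dashed line in TM and 9 in DM, while the other lists hold 0 to 3.

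Markers of other cells were read beside these values. Of all genes, 5.59% were called higher and 3.56% lower in TM against WT, and 5.28% and 5.67% in DM against WT. Between TM and DM the shares were 4.68% and 3.61%. The macrophage and leukocyte list, whose cells are known for high Ctss and Ctsc, had 0 of 16 genes called in any of the 3 comparisons by limma, also at an unadjusted p with the fold limit. Its mean log2 level was 6.47 to 6.55 in TM, 6.50 to 6.63 in DM and 6.52 to 6.54 in WT cells, with 14 of the 16 below the array median in each genotype. The osteoclast list, the cell type best known for Ctsk, had 0 of 6 called in either mutant against WT and 1 higher in TM than in DM. Its means were 7.16 to 7.17 in TM, 6.93 to 7.04 in DM and 7.06 to 7.07 in WT cells. Acp5, an osteoclast gene counted here among the other lysosomal hydrolases, was called higher in both mutants, at 0.88 in TM and 0.64 in DM. Of 12 mesothelial and epithelial markers, 6 were higher and 1 lower in DM, 0 were higher and 2 lower in TM, and 8 were lower in TM than in DM. Their mean log2 level was 7.39 to 7.52 in TM, 9.39 to 9.48 in DM and 7.94 to 7.97 in WT cells, and the log2 of their summed level was 11.1 to 11.2, 14.0 to 14.1 and 12.5. Among the called members, Ctsc, Scarb2, Manba, Ctsh, Fuca1 and Ids were likewise highest in DM, and the part of these markers in that result was not tested. Of 12 fibroblast markers, 5 were higher and 0 lower in TM and 2 were higher and 2 lower in DM, with means of 10.94 to 11.03 in TM, 10.18 to 10.19 in DM and 10.26 to 10.30 in WT cells. Among 10 markers of smooth muscle and pericytes, 5 were higher and 0 lower in TM, and 1 was higher and 2 lower in DM, with means of 9.93 to 10.02, 8.73 to 8.84 and 8.95 to 9.0 in TM, DM and WT cells, and their part in the values of TM was not tested.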

How the data were processed

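The authors' deposited values are log2 RMA levels, 1 per probe set and array. Per the study's methods, chips were scanned with GCOS and analysed in GeneSpring GX with RMA and PLIER, and the submitters' notes name RMA. RMA normalizes arrays to each other, so a shift of all genes between genotypes is removed. PLIER values were not analysed here. No source used here names the genome build behind the array annotation. Of 35556 probe sets, 21789 carried a single symbol, which gave 19938 genes by the brightest probe set.

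All 9 arrays were fitted together with limma 3.58.1 in R 4.3.3 (lmFit, eBayes, 6 residual degrees of freedom), for TM against WT, DM against WT and TM against DM. Calls required a Benjamini-Hochberg adjusted p under 0.05 over all genes and more than 1.5-fold. The first 2 comparisons share the WT arrays. Student's t-test, which the methods name, was an alternative, with Benjamini-Hochberg adjustment added here. For the arrays the methods give a p under 0.05 and over 1.5-fold and name no adjustment. The fit was tested on simulated data. The precision is limited by 3 arrays a genotype, with standard errors of the members' differences of 0.0515 to 0.114. The replicate numbers of the titles were not used as a pairing.

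Members and lists were chosen with earlier results of these data known. By rule, all members could be named, with array values for those called at over 2-fold and for Glb1, Tfeb and Cst3, and up to 4 called genes of each further list. Array values of Lipa, Fuca1, Tpp1 and Ids, the levels of Ctss and the fold changes of Acp5 were added after their values were seen. Promoters came from RefSeq on GRCm38.p6, which was used for no other coordinates.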

Additional observations from a re-analysis of the deposited data

Results flagged for a closer look

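Ids and Tfeb were singled out because the mutants lay on opposite sides of WT, with all 3 TM arrays below and all 3 DM arrays above every WT array. The comparison of TM with DM uses the same arrays as this choice, so its p-values are no independent support. It gave a log2 fold change of -0.66 for Ids (limma, adjusted p = 6.23e-07), which was called. For Tfeb it gave -0.58 (limma, adjusted p = 6.54e-06), which missed the 1.5-fold limit. No other member showed this arrangement.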

How the results depend on the processing

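Of the 17 calls among the members, 16 were kept under every alternative with the same thresholds in which the gene was tested. No called value changed sign. Some small values that were not called did, such as that of Hexa in TM against WT (-0.01 to 0.12). Scarb2 in TM against WT was lost by Student's t-test with Benjamini-Hochberg adjustment (adjusted p = 0.0584), with median centring (0.58) and without WT replicate 1 (0.50). Without a fold limit the counts were 17 higher and 7 lower in TM against WT, 21 and 8 in DM against WT, and 7 and 14 in TM against DM. With a 2-fold limit, 0 members were higher and 1 lower in TM against WT. Cyclic loess gave 7 higher in TM against WT, adding Fuca1 (0.62), Ppt1 (0.63) and Ctsh (0.60). A filter on dim probe sets left 39 members and dropped Ctsk, Ctsh and Ctss from the test. It gave 1 lower in TM and 0 lower in DM, and the call of Ctsh in DM was not tested under it. Leaving out each array in turn gave 3 to 6 higher and 2 lower in TM against WT, 6 and 1 in DM against WT, and 0 higher and 4 to 6 lower in TM against DM. Of 109 values not called, 6 were called under at least 1 alternative, among them Naglu in TM against WT without TM replicate 3 (0.64). Another was Tfeb in TM against DM, called under 4 of 19 alternatives, across all of which it ranged from -0.61 to -0.53. With the replicate block, TM against WT again gave 4 higher and 2 lower and no count of members moved. After each gene's genotype mean was subtracted, same-numbered arrays of different genotypes correlated at -0.239 to 0.168. Differently numbered arrays correlated at -0.358 to 0.248, so the numbers were not taken as pairs. Of 126 list counts, 12 moved under another normalization, among them Bnip3's fall in DM, which was lost with quantile and cyclic loess normalization.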
